A study of Caenorhabditis elegans with 2 samples.

Results

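Promoter occupancy by EGL-44 was examined at the genes for aminoacyl-tRNA synthetases and for translation initiation and elongation factors in whole Caenorhabditis elegans young adults. EGL-44 is the TEA domain (TEAD) protein of the worm, a sequence-specific DNA-binding protein. Members were taken by symbol: nuclear protein-coding genes named with an amino acid letter followed by ars-, or starting with eif-, eef- or ife-. They numbered 69 of 19973 nuclear protein-coding genes, made up of 33 synthetase genes and 36 translation factor genes. The translation factors comprised 25 eif- genes for initiation factors, 5 ife- genes for homologues of the cap-binding protein eIF4E, and 6 eef- genes for elongation factors. ChIP-seq was done with an anti-GFP antibody on worms of strain RW12173, which carry the allele st12173 (GFP inserted at egl-44 by CRISPR, with an unc-119(+) marker) in an unc-119(tm4063) background. The worms were synchronised by starvation as L1 larvae after bleaching and were grown for 66.5 h. There were 2 biological replicates of this 1 group, so no condition, genotype or stage was compared, and the comparisons are between gene classes and with all genes.

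Synthetases charge each tRNA with its amino acid, and animals use separate cytosolic and mitochondrial enzymes for many amino acids. Initiation factors bring the small ribosomal subunit, the initiator tRNA and the mRNA cap together. Elongation factor 1 then delivers charged tRNAs to the ribosome, and elongation factor 2 moves the ribosome along the mRNA by one codon. A library from whole worms mixes all tissues, so a peak cannot be given to any one of them.

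A promoter peak was counted where a summit lay 1000 bp upstream to 200 bp downstream of any annotated transcript start of the gene, on assembly ce11. The lists of peaks are those the authors thresholded for reproducibility, for the replicates pooled and for each replicate alone, with an estimated rate of irreproducible regions (global IDR) no higher than 0.01. Each comes from a longer ranked list of all called regions. Of the 69 members, 10 had such a peak in the pooled thresholded list (14.5%; 95% Wilson interval 8.07 to 24.7%), against 805 of the 19973 nuclear protein-coding genes, a background of 4.03%. The classes were far apart. Among the synthetases, 1 of 33 genes had a promoter peak (3.03%, 0.537 to 15.3%), which is near the background, and among the translation factors 9 of 36 did (25%, 13.8 to 41.1%). The share in synthetases minus that in translation factors was -22 percentage points (Newcombe 95% interval -38.2 to -5.31). Within the translation factors, the elongation factors stood highest with 5 of 6 genes (83.3%, 43.6 to 97%). The initiation factors had 3 of 25 (12%, 4.17 to 30%) and the eIF4E homologues 1 of 5 (20%, 3.62 to 62.4%). The synthetase share minus the elongation factor share was -80.3 points (-94.2 to -38.8); this second difference, over a class of 6 genes, was singled out after the counts had been seen and is a description only. These intervals cover the counting of genes only, not the spread between worms, and genes are not replicates.

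The 5 elongation factor genes were eef-1A.2, eef-1A.1, eef-1B.1, eef-1G and eef-2, and the synthetase gene was ears-2. The remaining members were eif-2Bgamma, eif-3.B, eif-3.C and ife-1. Stretches under 6 of the 10 peaks are shown to let the elongation factor promoters be read against each other and against the single synthetase promoter. All run 5′ to 3′ on the strand of the named gene and were read from the RefSeq copy of WBcel235, which is the assembly ce11. For eef-1A.2 (X:7823182-7823382) and eef-1G (V:10965574-10965725) capitals mark a run of 15 bases that both hold. For eef-1A.1 (III:6971985-6972185) capitals mark a run of 16 bases also present under the eef-2 peak, whose sequence is not shown. For eif-3.B (II:14794979-14795179) capitals mark TTTGCGTA. For eef-1B.1 (III:7973281-7973310) capitals mark the TEAD core word CATTCC, which starts 88 bases past the transcript start, in the 5′ leader, and is shown with 12 bases on either side. For ears-2 (IV:390469-390559) capitals mark the 21 bases around the summit, within the 91 bp that separate its start from that of the divergent gene uncp-18.
eef-1A.2: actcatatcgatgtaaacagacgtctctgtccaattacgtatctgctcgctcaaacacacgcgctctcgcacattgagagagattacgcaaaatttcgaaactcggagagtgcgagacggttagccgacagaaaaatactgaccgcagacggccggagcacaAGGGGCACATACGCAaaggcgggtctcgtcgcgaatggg
eef-1G: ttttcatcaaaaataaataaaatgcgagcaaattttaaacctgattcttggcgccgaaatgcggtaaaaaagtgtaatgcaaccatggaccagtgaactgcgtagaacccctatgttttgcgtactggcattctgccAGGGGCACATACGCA
eef-1A.1: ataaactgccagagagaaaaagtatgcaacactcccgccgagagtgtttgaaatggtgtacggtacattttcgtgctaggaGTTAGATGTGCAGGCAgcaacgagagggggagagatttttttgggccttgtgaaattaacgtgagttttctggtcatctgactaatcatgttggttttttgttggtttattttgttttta
eif-3.B: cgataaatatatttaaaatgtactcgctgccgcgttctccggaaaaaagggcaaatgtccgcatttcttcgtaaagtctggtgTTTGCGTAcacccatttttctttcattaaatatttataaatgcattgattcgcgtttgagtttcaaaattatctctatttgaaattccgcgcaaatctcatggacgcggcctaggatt
eef-1B.1: gacttttagcatCATTCCttcgtgtttcac
ears-2: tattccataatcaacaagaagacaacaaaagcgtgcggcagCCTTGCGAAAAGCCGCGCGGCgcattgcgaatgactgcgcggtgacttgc

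The 2 genes for elongation factor 1-alpha, the GTPase that carries charged tRNA to the ribosome, both had a peak upstream of the start, at nearly the same distance. eef-1A.2 had a pooled signal of 125.97, rank 210 of the 1537 nuclear peaks, its summit 372 bp upstream (X:7823127-7823436). In the replicates its signal was 83.07 in replicate 1 and 50.43 in replicate 2, and the peak was in the own list of each. eef-1A.1 had a pooled signal of 76.7, rank 879, with the summit 373 bp upstream (III:6971930-6972239). Its replicate signals were 45.49 and 25.61, and it was in neither replicate's own list. Its summit also lay 168 bp upstream of rfc-4, a gene for a subunit of replication factor C, so the peak cannot be given to eef-1A.1 alone. Signals are the authors' values, whose scaling between libraries is not stated, so they rank regions within a list and are not compared across lists.

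Among the other subunits of elongation factor 1, those of the 1-beta/1-delta type recharge the 1-alpha subunit with GTP. eef-1B.1, which encodes a 1-beta/1-delta subunit, had a pooled signal of 129.66, rank 193, at III:7973192-7973501. The summit lay 39 bp inside the gene, in its 5′ untranslated leader, and also 370 bp upstream of aco-2, the gene for mitochondrial aconitase. Replicate signals were 73.07 and 54.77, and both replicates' own lists held the peak. eef-1G, which encodes the gamma subunit, had a pooled signal of 113.19, rank 293, at V:10965519-10965828, where the summit lay 45 bp upstream of eef-1G and 135 bp upstream of the neighbouring gene ctf-4. Its signal was 85.48 at rank 125 of 53820 regions in replicate 1, whose own list held it, and 32.24 at rank 1398 of 40873 in replicate 2, whose own list did not. The 1 elongation factor gene without a promoter peak was eef-1B.2, the second 1-beta/1-delta gene. Its strongest promoter region had a signal of 28.6 at 126 bp upstream, a level that 68.3% of all genes stayed below. The nearest pooled peak lay 2171 bp downstream of the eef-1B.2 start, inside the gene, with a signal of 68.17, and 104 bp upstream of hrpu-1.

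eef-2, the gene for the translocase, had a pooled signal of 77.31, rank 859, and its summit lay 38 bp upstream, at I:9163338-9163647. Its signal was 49.77 in replicate 1, whose own list held it, and 32.79 in replicate 2, whose own list did not. The neighbouring gene clsp-1 started 227 bp from the same summit. Thus 4 of the 5 elongation factor summits also fell in the window of another protein-coding gene, and eef-1A.2 was the exception. With each summit given only to the nearest start of any gene, coding or non-coding, eef-1A.1, eef-1A.2 and eef-1B.1 were not counted. The nearest start to those summits was that of another gene, so the eef-1A.2 peak cannot be given to eef-1A.2 alone either.

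**Figure D1:**
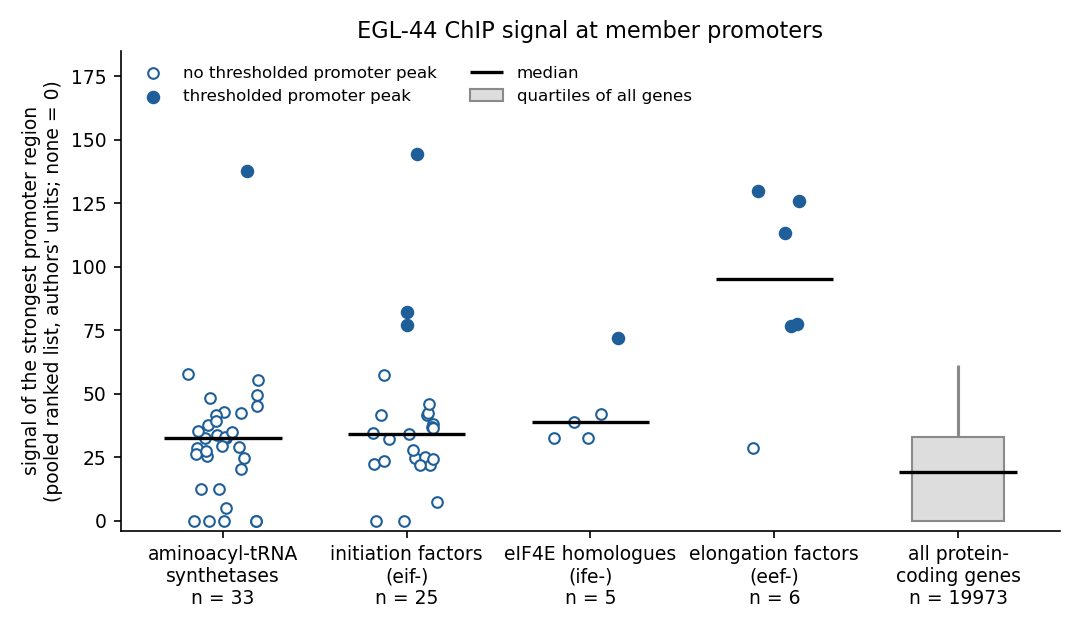
Signal of the strongest region in the promoter window of each member in the pooled ranked list (y axis, authors' units, members with no region at 0), by gene class, with filled points for members with a thresholded promoter peak; black lines are class medians, and for all 19973 protein-coding genes the grey box spans the quartiles and the line above it reaches the 95th percentile. The elongation factors sit highest with a median of 95.2, while the other classes have medians of 32.4 to 38.9 and all genes 19.2.

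Among the initiation factors, eif-2Bgamma had the highest signal of any member, 144.5, rank 137 (II:6968356-6968665). It encodes a subunit of eIF2B, the exchange factor that returns eIF2 to its GTP-bound form. The replicate signals were 76.2 and 63.09, and both replicates' own lists held the peak. Its summit, however, lay 863 bp upstream, inside an intron of C15F1.5 and within 300 bp of mir-1831 and sup-39, both annotated there as small nuclear RNA genes. Whether the peak belongs to those genes or to eif-2Bgamma was not tested. eif-3.B and eif-3.C encode subunits of eIF3, the large complex that holds the small ribosomal subunit ready for mRNA. eif-3.B had a signal of 81.98, rank 743, with the summit 325 bp upstream (II:14794924-14795233). Replicate signals were 51.28 and 37.66, and replicate 1's own list held it while replicate 2's did not. eif-3.C had a signal of 77.17, rank 865, with the summit 233 bp upstream (I:9979740-9980049), replicate signals of 59.29 and 25.39, and no place in either replicate's own list. The other initiation factor genes stayed below the threshold. The strongest of them were 4 further eIF3 subunit genes, eif-3.I at 57.2, eif-3.J at 45.8, eif-3.H at 42.2 and eif-3.E at 41.7. At the other end, eif-2Bdelta and eif-3.L had no region in the window in the pooled ranked list.

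The eIF4E homologues bind the mRNA cap. ife-1 was the one with a promoter peak, of signal 72.02 and rank 1016, the lowest of the 10 (III:13343649-13343958). Its summit lay inside an intron of ife-1, 20 bp upstream of a transcript start within the gene. The replicate signals were 33.73 and 34.43, and neither own list held the peak. ife-3 had a promoter peak in replicate 1's own list, of signal 49.47 at 970 bp upstream. The matching pooled peak of ife-3 lay 1029 bp upstream, just past the window, and 118 bp upstream of B0348.10, so ife-3 was not counted in the pooled list. In the pooled ranked list the strongest regions inside the window were 41.9 for ife-5, 38.9 for ife-3, 32.4 for ife-4 and 32.3 for ife-2.

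The single synthetase gene with a promoter peak, ears-2, encodes a mitochondrial nondiscriminating glutamyl-tRNA synthetase. The pooled signal was 137.71, rank 160, second among the members after eif-2Bgamma, at IV:390353-390662. The replicates gave 74.82 and 58.81, at ranks 199 of 53820 and 224 of 40873, and both own lists held the peak. The summit lay 40 bp upstream of ears-2 and 52 bp upstream of uncp-18, which starts in the opposite direction, so the peak cannot be told apart between the 2 genes. The gene for the cytosolic counterpart, ears-1, had a strongest promoter region of 33.5, which is close to the synthetase median of 32.4. The strongest synthetase regions below the threshold were 57.6 at fars-3, 55.2 at qars-1, 49.4 at rars-1 and 48.4 at iars-1, for enzymes that charge phenylalanine, glutamine, arginine and isoleucine tRNAs. In the pooled ranked list no region was called in the window of dars-1, dars-2, wars-1, aars-2 or yars-1. Outside the windows, fars-1 held a pooled peak of signal 101 inside the gene, 1371 bp downstream of its start and within 300 bp of the start of the snoRNA gene T08B2.13. A pooled summit lay within 300 bp of the start of 1 of 33 synthetase genes (3.03%), of 261 of 612 nuclear genes for their tRNA substrates (42.6%), and of 450 of the 19973 protein-coding genes (2.25%).

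**Figure D2:**
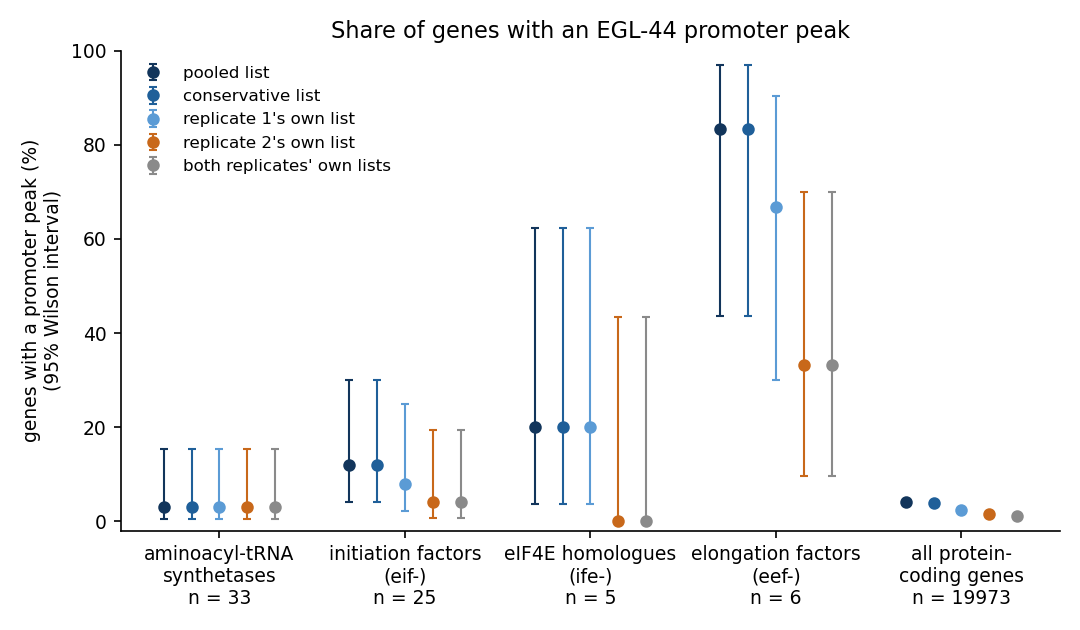
Percentage of genes with a promoter peak (y axis) in each gene class, with all protein-coding genes at the right, in the pooled and conservative lists, in each replicate's own list and in both own lists; bars are 95% Wilson intervals. Synthetases stay at 3.03% in all 5, while elongation factors lie at 83.3% in the pooled and conservative lists, 66.7% in replicate 1's list and 33.3% in replicate 2's list and in both.

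The conservative list gave the same counts, 1 of 33 synthetases and 9 of 36 translation factors, beside a background of 3.8%. In replicate 1's own list, 1 synthetase and 7 translation factors had a promoter peak, with a background of 2.29%, and the synthetase share minus the translation factor share was -16.4 points (-32.2 to -0.764). In replicate 2's own list, which was shorter, the counts were 1 and 3 with a background of 1.47%, and the same difference was -5.3 points (-19 to 8.14). The interval for replicate 2 holds zero, so the gap between synthetases and all translation factors was not separable from none by counting in that list. The same held in the pooled list at a global IDR of 0.001 or less and with each summit given to the nearest gene only, where the difference was -10.9 points (-25.8 to 3.7) in both cases. The synthetase share minus the elongation factor share was -63.6 points (-87.4 to -25) in replicate 1 and -30.3 points (-67.1 to -3.65) in replicate 2. Both replicates' own lists together held 4 members: ears-2, eif-2Bgamma, eef-1A.2 and eef-1B.1. That is 5.8% of the 69 (2.28 to 14%), beside a background of 1.03%. Of the 10 pooled member peaks, 4 were in both own lists, 3 in 1 and 3 in neither. Among all 687 nuclear promoter peaks the shares were 24.2% in both, 36.7% in 1 and 39.2% in neither.

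**Figure D3:**
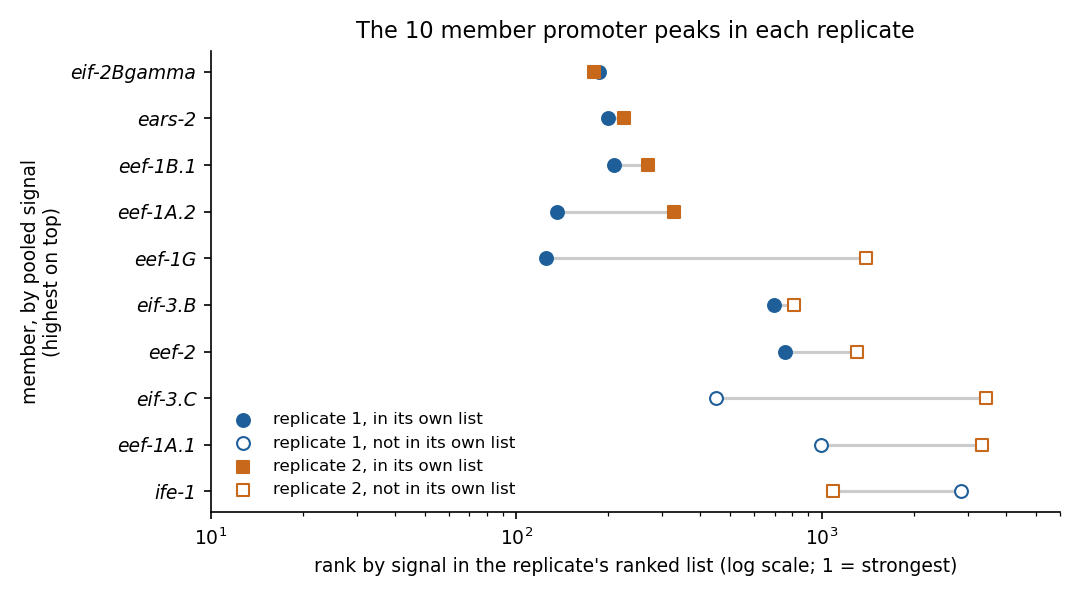
Rank by signal of each member peak's region in the replicate's own ranked list (x axis, log scale), one row per member in order of pooled signal, circles for replicate 1 and squares for replicate 2, filled where that replicate's own thresholded list holds the peak. The upper 4 members lie at ranks 136 to 327 in both replicates; of the lower 6, eef-1G, eif-3.B, eef-2, eif-3.C and eef-1A.1 are ranked lower in replicate 2, and ife-1 lower in replicate 1.

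Below the threshold, some called region was common. In the pooled ranked list 62 of the 69 members had a region in the window, 28 of 33 synthetases and 34 of 36 translation factors, with a background of 63.8%. Taking the strongest region per gene, with genes lacking one at 0, the median signal was 32.4 for synthetases, 34 for initiation factors, 38.9 for eIF4E homologues and 95.2 for elongation factors, against 19.2 for all genes. The median synthetase had a stronger region than 74.6% of all genes, and the median initiation factor than 77.1%. For elongation factors this was 98.2%. The synthetases thus lay above the median gene in signal while their share of thresholded peaks was near that of all genes. Placing genes without a region at 0 widens this gap. Among genes with a region, the median was 33.3 for synthetases and 28.5 for all genes. Among promoter peaks, member peaks had a median signal of 97.6 (72 to 144, n = 10) and all nuclear promoter peaks 82.9 (n = 687). This order turned round with the window of 500 bp up and 100 bp down (82 for members and 83.1 for all promoter peaks) and with the nearest gene only (79.6 and 80.7). The 5 elongation factor peaks had a median of 113 and the 5 other member peaks one of 82.

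The distance to the nearest protein-coding start had a median of 106 bp for the 10 member peaks, and 5 of them were within 50 bp. For all 687 promoter peaks the median was 256 bp, with 70 within 50 bp. Of the 10 member summits, 5 also lay in the window of another protein-coding gene (50%), beside 176 of 687 promoter peaks (25.6%). Only eif-2Bgamma's summit was within 300 bp of a tRNA, snoRNA, snRNA or rRNA gene start, 1 of 10 beside 101 of 687 (14.7%).

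**Figure D4:**
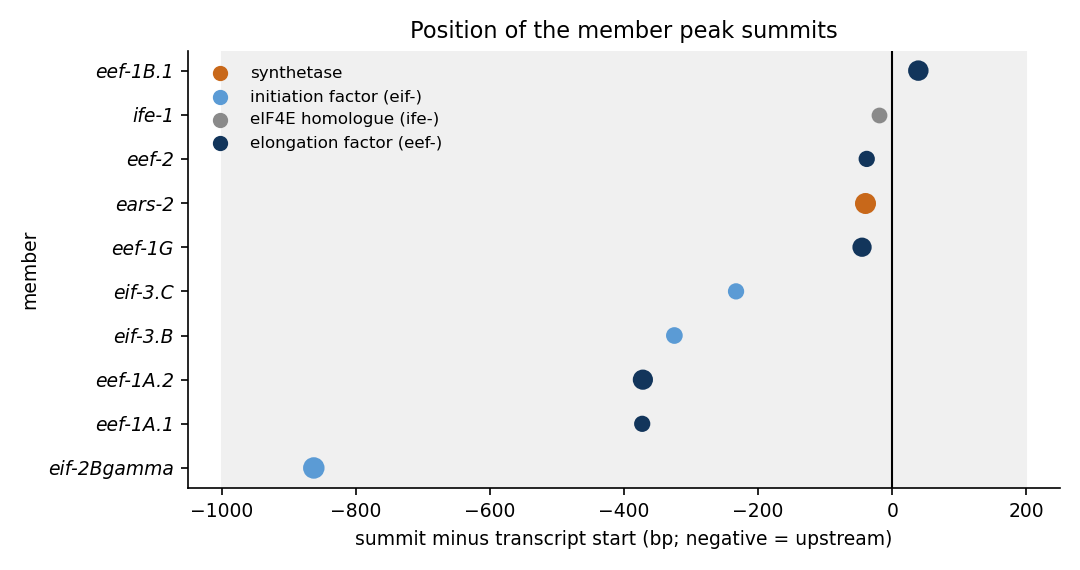
Distance of each member peak's summit from the member's nearest transcript start (x axis, bp, negative is upstream; grey marks the promoter window), one row per member; point area scales with pooled signal and colour gives the class. Summits of eef-1B.1, ife-1, eef-2, ears-2 and eef-1G lie within 50 bp of the start, those of eif-3.C, eif-3.B, eef-1A.2 and eef-1A.1 at 233 to 373 bp upstream, and that of eif-2Bgamma at 863 bp.

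The windows of 100 bp on either side of the summits were searched for words on both strands. CATTCC, the core of the site that TEAD proteins bind, was in 1 of 10 member windows, that of eef-1B.1, beside 7.57% of all 687 promoter peak windows and 10% of 21596 weaker promoter regions. A further pair of words was picked after these sequences had been seen, so their counts are a description only. TTTGCGTA was in 4 of the 10 windows, those of eif-2Bgamma, eef-1A.2, eef-1G and eif-3.B, beside 2.47% of all promoter peak windows and 0.713% of the weaker ones. GAGAGA was in 3 member windows, those of eef-1A.2, eef-1A.1 and ife-1, beside 32.3% of promoter peak windows and 14.7% of weaker ones. No match says only that these letters are not in the window.

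The longest stretches shared between member windows were both between elongation factor genes. The run in capitals under eef-1A.2 and eef-1G occurs 5 times in the genome, and 4 of these lie in pooled peaks: 1 each at eef-1A.2 and eef-1G, and 2 in 1 peak of signal 71.84 upstream of icd-1, the gene for a subunit of the nascent polypeptide-associated complex. The run under eef-1A.1 and eef-2 occurs 4 times, and 3 of these lie in pooled peaks, at those 2 genes and upstream of the ribosomal protein gene rpl-11.2 (signal 84.85). The fourth, 203 bp upstream of the proteasome gene pbs-1, lies in no called region. The 15-base run crosses the annotated start of eef-1G and lies 303 bp upstream of eef-1A.2, and the 16-base run crosses the annotated start of eef-2. At eef-1A.2 the 15-base run overlaps a copy of TTTGCGTA on the other strand, while a further copy lies outside the run. Sharing 15 bases or more was found in 2 of 45 pairs of member windows (4.44%), beside 730 of 235628 pairs of all promoter peak windows (0.31%). The limit of 15 bases equals the length of the shorter of the runs already noticed. The member count therefore follows from the limit, and the 2 shares are a description only. These runs were noticed in the sequences, and what binds them was not tested.

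Translation genes outside the naming rule were taken from a separate list of 37 symbols, of which 35 matched a gene. Of these, 5 had a pooled promoter peak (14.3%, 6.26 to 29.4%), a share close to that of the 69 members and beside the same background for all genes. larp-1, which encodes a La-related RNA-binding protein, had the highest signal at 194.06, rank 48, with the summit 690 bp upstream. iff-2, an eIF5A gene, followed at 169.21, rank 76, with the summit 79 bp upstream. ifet-1, which encodes an eIF4E-binding repressor of translation, had a signal of 109.15 at 505 bp upstream. pab-2, a poly(A)-binding protein gene, had 100.37 at 99 bp upstream, and the release factor gene erfa-3 had 78.56 at 273 bp upstream. Replicate 1's own list held all 5 and replicate 2's held 3, which were larp-1, iff-2 and ifet-1.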

How the data were processed

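The 8 peak files hold, per the labels, a ranked and a thresholded list of called regions for each replicate and for the replicates pooled, and a conservative pair. The signal of each region is a value the authors deposited, in units that are not stated. The ranked lists also carry, as the authors deposited it, the global IDR (irreproducible discovery rate, a measure of how poorly a region recurs between the lists compared) on a −log10 scale. Every thresholded region had a global IDR of 0.01 or less, and 23, 25, 15 and 18 regions at that level were absent from the pooled, conservative, replicate 1 and replicate 2 thresholded lists. The pooled list held 1553 regions (1537 nuclear), the conservative list 1442, and those of replicates 1 and 2 held 769 and 568. The sources used here name no aligner or peak caller. Depth is unknown, since the lists hold no read counts. A further 8 input columns without replicate names were not used.

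Transcript starts came from Ensembl release 115. Symbols came from RefSeq, by gene ID for 46881 of 46926 genes and by sequence name for 1 more (mars-2). cars-2, annotated as a pseudogene, was left out. Members and lists were chosen with earlier results of these data known. Because there was 1 group, no test was made. Shares carry 95% Wilson intervals and differences Newcombe intervals, which cover the counting of genes or peaks. Genes were named by a rule: every member with a peak in the pooled list or either replicate's list, up to 4 members per class with the strongest region below the threshold, members with no region where a class had 5 or fewer, genes sharing a member's summit, and list genes with a pooled peak. ears-1, fars-1 and the genes at shared runs were added after their values were seen. Assignment of summits was tested on simulated data. Python 3.11.15, NumPy 2.4.6, pandas 2.3.3, SciPy 1.17.1 and Matplotlib 3.10.9 were used.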

Additional observations from a re-analysis of the deposited data

How the results depend on the processing

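The synthetase count was 1 of 33 under all 9 alternatives: the conservative list, each replicate's own list, a global IDR of 0.001 or less, promoter windows of 500 bp up and 100 bp down and of 2000 bp up and 500 bp down, gene starts only, no peaks at small RNA genes, and assignment to the nearest gene only. The translation factor count of 9 was 3 to 7 with 1 replicate left out, 5 at the stricter IDR and 5 with the nearest gene only; the share of all genes with a peak was 1.73% and 2.15% in these 2, against 4.03%. The elongation factor count of 5 was 2 to 4 with 1 replicate left out, 3 at the stricter IDR and 2 with the nearest gene only (eef-1G and eef-2). The pathway count of 5 was 3 to 5 with 1 replicate left out, and 3 with the narrow window and with the nearest gene only. The share of all genes with a peak fell as well, from 4.03% to 2.86% with the narrow window and to 2.15% with the nearest gene only. The share difference of -22 points was -16.4 to -5.3 with 1 replicate left out, and -10.9 (-25.8 to 3.7) at the stricter IDR and with the nearest gene only. The median member signal of 97.6 was 56.8 to 73.9 in the replicates' own lists, whose signals have their own scale; without peaks at small RNA genes it was 82, beside 81.1 for all promoter peaks, and with the narrow window and the nearest gene only it fell below that of all promoter peaks. Members with any ranked region numbered 50 of 69 (72.5%) in replicate 1's ranked list, beside 51% of all genes. In replicate 2's ranked list they numbered 47 (68.1%), beside 47.1% of all genes. The word CATTCC was in 0 member windows at 50 bp and in 2 at 150 bp. Shares over all promoter peaks were not computed at these widths, so these counts stand without a background. In all, 50 of 64 values stayed within the limits set for them. The limits were a set ratio to the main value for counts, the main interval for the share difference and the main quartiles for the median. A difference could thus stay within its limit while its own interval held 0, as for -10.9 (-25.8 to 3.7). No paired analysis was possible because there was 1 group. Limits: the lists give no read depth, 2 replicates give no spread beyond their own lists, the class of 6 elongation factors is small, and shared summits cannot be given to 1 gene.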

Other observations

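A same-strand protein-coding gene ended within 500 bp upstream of 12 of 33 synthetase genes (36.4%) and of 7 of 36 translation factor genes (19.4%), beside 3615 of 19973 of all nuclear protein-coding genes (18.1%). Among members with a promoter peak this held for 2 of 10 (20%), and among those without for 17 of 59 (28.8%). For all nuclear protein-coding genes with a promoter peak it held for 116 of 805 (14.4%), also below the 18.1% of all genes. The lower share at genes with a peak is thus not particular to the members.

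The 10 member windows had a median GC content of 41.3% (37.8 to 53.7%), beside 45.8% for all 687 promoter peak windows and 39.3% for 21596 weaker promoter regions. In the wide window of 2000 bp up and 500 bp down, 13 members had a pooled peak, beside 1168 of all genes (5.85%). The 3 added were eif-3.G (1081 bp upstream), eif-6 (1996 bp upstream, at the tubulin gene tba-2) and ife-3.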
